A study of Mus musculus with 4 samples.

Results

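The genes described here are 38 type I interferon response genes, taken by their symbols from a fixed list, and all 38 were present among the 31053 genes counted in single thymic invariant natural killer T (iNKT) cells. iNKT cells are T cells with a nearly invariant T cell receptor that recognises lipids presented by CD1d. Thymocytes that bound PBS57-CD1d tetramer (PBS57 is a synthetic lipid antigen) were sorted from untreated mice 8 to 9 weeks old. The mice were wildtype C57BL/6 or Hivep3-/- on a C57BL/6 background, Hivep3 being the gene of a large zinc finger protein. CD44low and CD44high thymocytes were sorted in equal numbers, and shares of cells given here depend in part on that mixture. Each library came from 1 mouse, with 2 libraries per genotype, and was made with 10x Genomics 5' chemistry, in which each unique molecular identifier (UMI) counts the 5' end of 1 captured transcript. P values between genotypes measure the spread between these mice. Where groups of cells from the same libraries were compared, p values measure how far the difference between the groups varied from library to library. In lists of 4 values the libraries stand in the order C57BL/6 replicate 1, C57BL/6 replicate 2, Hivep3-/- replicate 1, Hivep3-/- replicate 2.

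Between 3651 and 7231 cells per library were kept, 19647 in all, with a median of 4596 to 6833 UMIs per cell. Clusters were built without the 38 genes, other interferon genes and sex-linked genes among the variable genes, and were grouped by markers into 5 classes: stage 0-like cells, the Cd24a-expressing earliest iNKT stage (116 to 401 cells per library), cycling-like cells (255 to 1289), iNKT2-like cells (396 to 1543), iNKT17-like cells (131 to 224) and iNKT1-like cells (1837 to 2828). Between 605 and 1076 cells per library fell in 3 clusters without a class. The marker lists of stage 0 (85.5 to 104 UMIs per 10000 in their own class, 5.61 to 25.2 in the others), iNKT17 (28.4 to 34.8 against 0.127 to 4.80) and iNKT1 (113 to 159 against 6.14 to 40.9) separated their classes in every library. The iNKT2 list separated its class less (16.6 to 23.6 against 2.69 to 18.8). Of 35 markers listed for double positive thymocytes, B cells, myeloid cells, plasmacytoid dendritic cells and thymic epithelium, 15 lay under 1 CPM (a count per 1000000 UMIs) in every library over all kept cells, among them Rag1, Csf1r, Siglech and Krt5. Others were counted, such as Ighm at 71.7 to 129 CPM and Cst3 at 128 to 161 CPM. Cd8a was at 4.46 and 3.02 CPM in C57BL/6 and at 17.9 and 14.9 CPM in Hivep3-/-, and Epcam at 5.53 and 6.35 against 20.1 and 22.4 CPM. The 5 lists summed to 344 and 349 CPM in C57BL/6 and to 424 and 411 CPM in Hivep3-/-, and their part in the genotype comparisons was not tested. Scrublet, a caller of doublets (droplets with more than 1 cell), marked 1 to 4 cells per library, too few for its calls to be used, and no doublets were removed. Any pair of libraries shared 26 to 58 barcodes, at most 1.34% of the smaller library. C57BL/6 replicate 1 stood apart in sex-linked transcripts, with 14609 Xist UMIs and 0 UMIs of Y-linked genes, against 3 to 25 and 3568 to 4879 in the other 3 libraries. The study's results describe the sequenced C57BL/6 mice as female, which the second C57BL/6 library goes against, while its methods give mice of both sexes for the study. The part of sex in the results was not tested, and counts without C57BL/6 replicate 1 are given for comparisons of classes where they differ. Hivep3 was counted at 38.5 and 36.4 CPM in the C57BL/6 libraries and at 101 and 68.0 CPM in the Hivep3-/- libraries. The sources used here do not say where the gene is cut, so its counts are no check of the genotype labels.

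Type I interferons bind a receptor made of Ifnar1 and Ifnar2, whose kinases Jak1 and Tyk2 phosphorylate Stat2. It joins Irf9 in a complex that enters the nucleus and binds interferon-stimulated response elements in the promoters of its target genes. Some interferon is made in the thymus without infection, medullary epithelial cells being one source, and conventional thymocytes take on an interferon signature as they mature. The 38 genes cover the pathway's own factors (Stat2, Irf9 and Irf7) and its negative regulator Usp18, sensors of foreign nucleic acid (Ddx58, Ifih1, Dhx58 and Zbp1), antiviral effectors (Isg15, Isg20, Ifit1, Ifit3, Ifit3b, Rsad2, Cmpk2, Mx1, Oas3, Oasl1, Oasl2, Bst2, Trim30a and Samd9l), interferon-inducible GTPases (Igtp, Irgm1 and Ifi47), Schlafen genes (Slfn1, Slfn5 and Slfn8), ADP-ribosyltransferases (Parp9 and Parp14), the chemokine Cxcl10, and further induced genes (Ifi203, Ifi27l2a, Ifi35, Ifi44, Rtp4, Sp100 and Xaf1).

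Promoters of 7 of the genes are shown because the response element is the sequence through which the pathway acts. They include genes with a large (Rsad2, Ifit3 and Ifit3b) and a small (Sp100) share of UMIs in the interferon-high cells described further on. The 7 were not drawn to represent the 38, and whether matches go with that share was not tested. RefSeq start sites on GRCm38.p6 gave a window of 250 bases before to 50 bases after the start for 30 of the 38 genes, and none for Usp18, Mx1, Ifi27l2a, Dhx58, Zbp1, Rtp4, Parp9 and Parp14. The core of the interferon-stimulated response element, GAAA then any 2 bases then GAAA, searched on both strands, lay in the windows of 17 of these 30 genes (56.7%), against 3.99% of 27025 genes. Capitals mark its matches, overlapping ones included, and appear as the reverse complement where the match is on the opposite strand. Each line is the 170 bases before the start, 5' to 3' on the gene's strand.
Isg15 promoter, chr4:156200819-156200988, minus strand: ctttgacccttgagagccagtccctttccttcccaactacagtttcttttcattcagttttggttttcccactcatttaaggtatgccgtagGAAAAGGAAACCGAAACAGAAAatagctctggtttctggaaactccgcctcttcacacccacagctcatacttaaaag
Ifit1 promoter, chr19:34640719-34640888, plus strand: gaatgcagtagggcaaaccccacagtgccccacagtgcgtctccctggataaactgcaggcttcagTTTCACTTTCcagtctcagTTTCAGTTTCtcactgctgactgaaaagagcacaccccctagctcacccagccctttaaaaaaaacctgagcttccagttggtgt
Ifit3 promoter, chr19:34583359-34583528, plus strand: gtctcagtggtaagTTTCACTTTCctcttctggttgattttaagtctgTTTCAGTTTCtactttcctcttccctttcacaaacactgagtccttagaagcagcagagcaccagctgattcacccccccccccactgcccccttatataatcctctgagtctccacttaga
Ifit3b promoter, chr19:34607787-34607956, plus strand: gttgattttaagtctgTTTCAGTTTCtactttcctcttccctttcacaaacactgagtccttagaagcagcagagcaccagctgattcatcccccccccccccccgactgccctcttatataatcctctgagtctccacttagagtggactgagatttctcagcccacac
Rsad2 promoter, chr12:26456453-26456622, minus strand: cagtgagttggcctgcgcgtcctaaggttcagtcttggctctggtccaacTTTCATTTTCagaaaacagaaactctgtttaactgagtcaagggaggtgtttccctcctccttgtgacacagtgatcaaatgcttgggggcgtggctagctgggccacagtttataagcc
Bst2 promoter, chr8:71537473-71537642, minus strand: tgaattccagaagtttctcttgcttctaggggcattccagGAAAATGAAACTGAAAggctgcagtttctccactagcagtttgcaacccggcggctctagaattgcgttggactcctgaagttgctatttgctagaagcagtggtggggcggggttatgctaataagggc
Sp100 promoter, chr1:85649818-85649987, plus strand: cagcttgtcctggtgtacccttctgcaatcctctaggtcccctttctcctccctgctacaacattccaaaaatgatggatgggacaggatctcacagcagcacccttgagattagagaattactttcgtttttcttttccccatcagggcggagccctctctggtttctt
Isg15, a ubiquitin-like modifier, had 3 overlapping matches within this window, and the longer form with GAAA 3 times, each 2 bases apart, occurred in 3 of the 30 genes (Isg15, Bst2 and Irgm1) against 0.133% of all genes. Ifit1 and Ifit3, which code for proteins that bind foreign RNA ends, each had 2 matches. The windows of Ifit3 and Ifit3b shared a run of 169 bases, so the pair is close to identical there. Reads of such near-identical genes may be split between them, and the counts of both are uncertain. Rsad2, coding for viperin, had 1 match, and Sp100, a component of nuclear bodies, had none among these letters. The gamma-activated core TTCNNNGAA was found for 4 of the 30 genes (13.3%: Isg20, Ifi35, Bst2 and Igtp) against 9.55% of all genes.

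Expression of the 38 genes was lowest in stage 0-like cells and highest in the iNKT2-like and the iNKT1-like class in both genotypes. Summed over the genes, stage 0-like cells held 8.84, 8.65, 8.71 and 9.41 UMIs per 10000 UMIs of the cell (mean over cells). The cycling-like class had 24.9, 29.8, 25.3 and 21.7, and iNKT17-like cells had 21.2, 24.0, 26.7 and 24.4. The ranges of these middle classes overlapped (25.4 ± 3.35 and 24.1 ± 2.26, mean ± SD, n = 4 libraries). Within libraries, cycling-like cells lay above iNKT17-like cells in both C57BL/6 libraries and below them in both Hivep3-/- libraries. iNKT1-like cells had 37.99, 38.8, 42.5 and 36.4, and iNKT2-like cells had 38.5, 45.3, 40.7 and 39.6. The ranges of the latter classes overlapped as well (38.9 ± 2.57 and 41.0 ± 3.001), whereas every stage 0-like library lay below every library of the other classes.

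**Figure D1:**
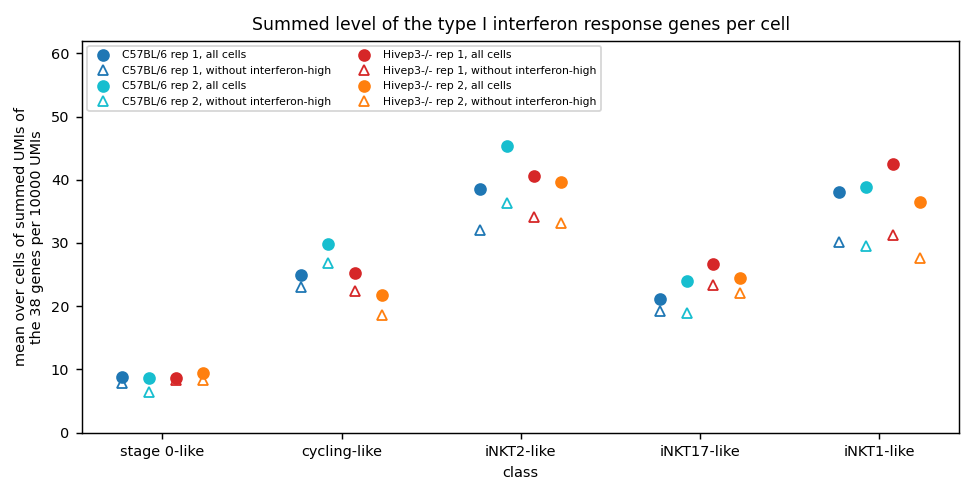
Summed UMIs of the 38 genes per 10000 UMIs (y axis, mean over the cells of a class) for each class (x axis) and library (colour). Filled circles are all cells of the class and open triangles the cells left after interferon-high cells were taken out; stage 0-like libraries lie between 8.65 and 9.41 and iNKT2-like libraries between 38.5 and 45.3.

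By single gene, 37 of the 38 had their lowest mean level in stage 0-like cells, the exception being Oasl1, which was lowest in iNKT17-like cells. The highest mean was in iNKT1-like cells for 18 genes, in iNKT2-like cells for 17, in iNKT17-like cells for Igtp and Slfn5, and in cycling-like cells for Cmpk2. For 25 genes every stage 0-like library lay below every library of the other 4 classes. Such counts were made for the 38 genes only and stand without the share of all genes. Classes were compared on UMIs summed per library with edgeR's quasi-likelihood test and library as a block. Genes whose p, adjusted by Benjamini-Hochberg over all genes tested, was under 0.05 were called, and adjusted p values given further on come from this test. The classes were formed from the same cells, though without these genes. Log2 differences are on TMM-scaled counts, which in iNKT1-like over stage 0-like cells adds 0.37 to the difference in CPM, 0.23 in cycling-like over stage 0-like and 0.14 in iNKT2-like over cycling-like cells. No called gene of the 38 changed its sign when this shift was taken off.

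**Figure D2:**
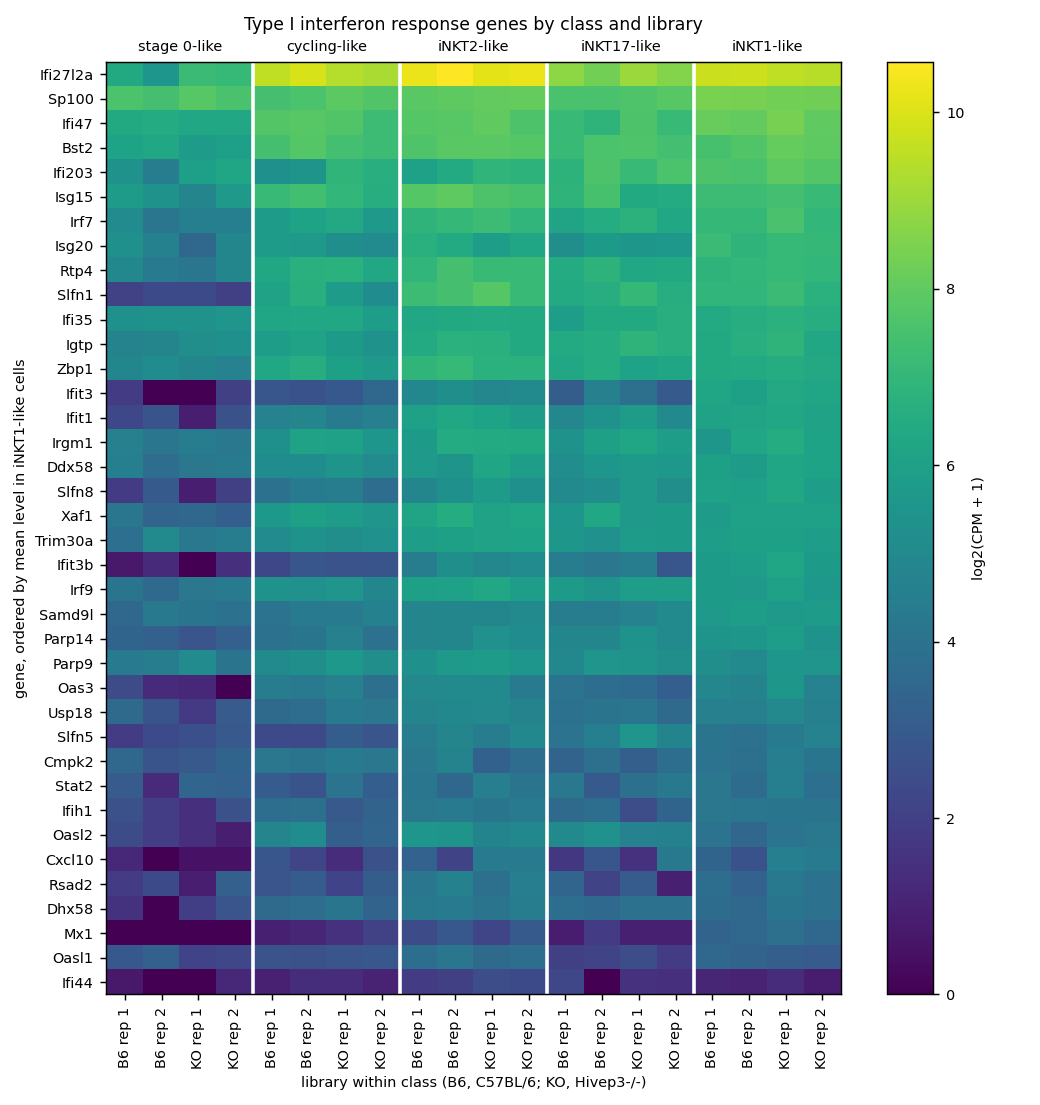
Level of each gene (rows, ordered by mean level in iNKT1-like cells) in each library of the 5 classes (columns), as log2(CPM + 1). Mean levels are lowest in the stage 0-like columns for 37 of the 38 genes.

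In iNKT1-like over stage 0-like cells 37 of the 38 genes were higher and 0 lower, where 33% of all 10610 genes tested were called higher and 29.9% lower. The median log2 difference of the 38 genes was 2.36, against 0.03 over all genes tested. Only Ifi44 was not called, with 4 UMIs in all stage 0-like cells. Mx1, a GTPase gene (chr16:97447035-97462907, minus strand, GENCODE vM21 on GRCm38), was at 9.42, 10.4, 13.9 and 11.05 CPM in iNKT1-like cells. It had 0 UMIs in the stage 0-like cells of all 4 libraries. A count of 0 among 7009592 UMIs allows up to 0.428 CPM (a floor of 3 UMIs over the class), so Mx1 was at least 27.3-fold higher in iNKT1-like cells. Intervals and floors given here cover counting error only.

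Ifit3b stood at 52.7, 58.6, 72.3 and 53.9 CPM in iNKT1-like cells and at 0.650, 1.41, 0 and 1.69 CPM in stage 0-like cells (log2 difference 6.45, SE 0.364), where it had 6 UMIs in all. Its neighbour Ifit3 (chr19:34583531-34588731, plus strand) had 74.9, 64.0, 82.8 and 74.8 CPM against 2.60, 0, 0 and 2.96 CPM (5.93, SE 0.370). Neither gene's levels overlapped between the classes. Slfn1, a Schlafen gene that restrains T cell growth, had 122, 123, 148 and 105 CPM against 3.25, 4.23, 4.17 and 2.96 CPM (5.47, SE 0.319). Ifi27l2a, a small mitochondrial protein gene strongly induced by interferon, had 849, 859, 744 and 695 CPM against 85.1, 46.5, 145 and 136 CPM (3.20, SE 0.227). It was the gene with the most UMIs of the 38, and its level in the Hivep3-/- stage 0-like libraries lay above that in the C57BL/6 ones. Xaf1, a gene linked to cell death, had 56.5, 64.6, 66.2 and 65.7 CPM against 16.9, 9.86, 10.8 and 8.04 CPM (2.84, SE 0.177). The exonuclease gene Isg20 had 147, 117, 135 and 131 CPM against 38.3, 23.9, 10.4 and 27.9 CPM (2.83, SE 0.217). Isg15 had 152, 152, 172 and 140 CPM against 57.2, 40.9, 26.7 and 52.1 CPM (2.15, SE 0.194). Adjusted p values of these genes from edgeR ran from 9.35e-12 for Ifit3b to 8.56e-09 for Isg15, and 3.79e-08 for Mx1. Of the 38 genes, 13 passed in all 5 class comparisons made, and these 8 are the ones with the largest summed differences among them. The 13 stand without the share of all genes that passed in all 5, and served only to choose genes to name.

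The step from stage 0-like to cycling-like cells held 33 of 38 genes called higher and 0 lower (all genes tested: 28.4% higher, 17.6% lower), with a median of 1.54 against 0.08 over all genes. Ifi44, Oasl1, Stat2, Slfn5 and Rsad2 did not pass, among them Rsad2 with 2.60, 4.23, 0.834 and 8.47 CPM in stage 0-like cells and 5.90, 7.48, 3.42 and 7.73 CPM in cycling-like cells, ranges that overlap. From cycling-like to iNKT2-like cells 37 genes were called higher and 0 lower (24.7% and 23.7% of all genes), with a median of 0.90 and Cmpk2, a mitochondrial nucleotide kinase, as the exception. Without C57BL/6 replicate 1, 35 of these 37 calls were kept. Cycling-like cells held more UMIs per cell (medians of 12380 to 15960) than the other classes (3317 to 9692).

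iNKT1-like and iNKT2-like cells had sums within each other's spread. In iNKT1-like over iNKT2-like cells 10 genes were called higher and 11 lower (23.3% and 23.2% of all genes), shares close to those of all genes, with a median of -0.01. Those higher were Sp100, Ifi203, Samd9l, Isg20, Ifi47, Slfn8, Parp14, Mx1, Ifit3 and Ifit3b. Ifit3, at 29.7, 36.9, 28.9 and 32.5 CPM in iNKT2-like cells, had the largest difference of those (1.21, SE 0.172, edgeR adjusted p 1.04e-05). The lower ones were Zbp1, Ifi44, Isg15, Oasl2, Oasl1, Irf9, Xaf1, Slfn5, Slfn1, Dhx58 and Ifi27l2a. Ifi27l2a was at 1229, 1521, 1115 and 1242 CPM in iNKT2-like cells, above its iNKT1-like level in each library (-0.71, SE 0.196). Isg15, at 221, 246, 198 and 181 CPM in iNKT2-like cells, was above every iNKT1-like library (-0.44, SE 0.157). The count of calls was 14 without C57BL/6 replicate 1 against 21 with all libraries. In iNKT17-like over iNKT2-like cells 24 genes were lower and only Ifi203, a member of the DNA-binding PYHIN family, was higher (11% of all genes were called higher and 11.1% lower), with a median of -0.68. Without C57BL/6 replicate 1, 20 of these calls were kept and 5 were lost. Ifi203 overlaps Mndal on the same strand, Igtp Irgm2, Ifi47 Olfr56 and Irf9 Rnf31, so the assignment of reads to these genes is uncertain.

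The upstream genes followed part of this pattern. Irf1, an interferon-induced transcription factor, was at 42.1 ± 7.19 CPM in stage 0-like and 191 ± 29.4 CPM in iNKT1-like cells (SD, n = 4 libraries, log2 difference 2.54, SE 0.121). The receptor gene Ifnar1 rose from 32.7 ± 8.94 to 57.5 ± 8.54 CPM between these classes (1.13, SE 0.127). Ifnar2 was at 75.4, 66.2, 104 and 101 CPM in stage 0-like and 102, 89.2, 99.1 and 97.4 CPM in iNKT1-like cells (0.51, SE 0.0976). Its CPM was higher in iNKT1-like cells in the C57BL/6 libraries and lower in the Hivep3-/- ones, so its direction depends on scaling and library. Jak1 stood at 139 ± 32.1 and 318 ± 20.8 CPM (1.57, SE 0.0962), and Tyk2 at 12.9 ± 5.47 and 24.6 ± 4.71 CPM (1.39, SE 0.185). All 5 genes passed the edgeR test, the largest adjusted p being 0.000125 for Ifnar2. In a wider list of the pathway, 158 genes of which 154 were counted and 121 tested, 106 were higher and 6 lower in iNKT1-like than in stage 0-like cells, including 81 and 4 of 89 further target genes. Transcripts of the interferons themselves were all but absent: of 20 listed type I and type III genes, 18 had 0 UMIs in every library, Ifna13 had 1 UMI in Hivep3-/- replicate 2, and Ifnz had 2, 1, 6 and 2 UMIs. Type II interferon was counted, with 3467, 1580, 1712 and 2991 Ifng UMIs.

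A small part of the cells carried the genes at a much higher level. To count them, each cell with at least 2000 UMIs was thinned to 2000 UMIs, and cells with at least 3 UMIs from at least 2 of 8 anchor genes (Ifit1, Ifit3, Isg15, Rsad2, Usp18, Cmpk2, Oasl1 and Irf7) were called interferon-high. These were 1692 of 18897 cells (8.95%). The shares were 8.65%, 9.78%, 9.57% and 8.07% in the 4 libraries, and the genotypes overlapped. The share was highest in iNKT2-like (11.6% ± 1.85) and iNKT1-like cells (10.2% ± 0.812), lower in cycling-like (5.13% ± 0.830) and iNKT17-like cells (4.66% ± 0.828) and lowest in stage 0-like cells (1.87% ± 0.918, SD, n = 4). Only 19 stage 0-like cells were interferon-high, so the intervals there are wide, for example 0.232% to 6.71% in C57BL/6 replicate 2 (exact 95% binomial). With 2 libraries per genotype the smallest p of an exact permutation test is 0.333, and no test was made on shares or sums. Among iNKT1-like clusters with cells in all 4 libraries, the mean share ran from 5.015% in the cluster led by Gzmb, Srm and Tmem238 to 13.2% in that led by Il12rb2, Fgl2 and Fasl. A small iNKT1-like cluster led by Klrg1, S1pr5 and Zeb2 had no cells in C57BL/6 replicate 1. Interferon-high there were 0 of 3 cells in C57BL/6 replicate 2, and 2 of 45 and 0 of 6 in Hivep3-/-. In the iNKT1-like cluster led by Cdh1, Klra5 and Fcer1g, chosen after its values were seen, the share was 8.97% and 9.14% in C57BL/6. In Hivep3-/- it was 16.9% and 12.5% there, without overlap. The genotypes did not overlap in some other clusters either, in both directions. Hivep3-/- also lay above in the iNKT1-like cluster led by Gzmb and the cycling-like cluster led by Cdc6. Hivep3-/- lay below in the stage 0-like cluster, the cycling-like clusters led by Ccnb2 and by Hist1h2ap with Pclaf, and the unclassed cluster led by Izumo1r. Some of these shares rest on as few as 1 interferon-high cell in a library.

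**Figure D3:**
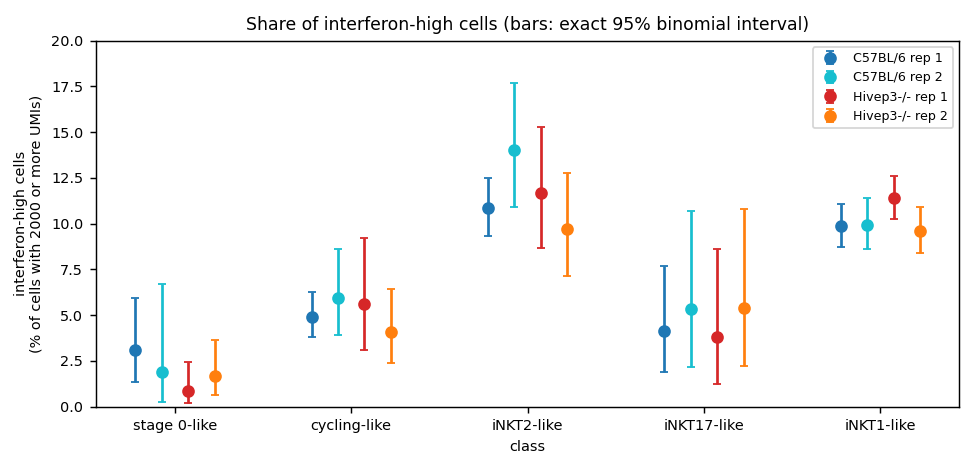
Share of interferon-high cells (y axis, percent of cells with at least 2000 UMIs) in each class (x axis) and library (colour), with exact 95% binomial intervals that cover counting error only. iNKT2-like and iNKT1-like libraries lie between 9.59% and 14.1%, and the genotypes overlap in every class but stage 0-like.

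No gap was seen at the cut, but anchor counts this low after thinning could hide a gap between groups of cells. The other 30 genes, which the cut did not use, summed to 19.0 to 22.7 UMIs per 10000 in the 12276 cells without an anchor UMI, to 30.6 to 33.3 with 1 anchor UMI, 42.0 to 46.7 with 2, 50.8 to 63.4 with 3 and 130 to 153 with 10 or more. They thus climbed with the anchors at every step in every library, and 1192 cells with 2 anchor UMIs lay just under the cut and 585 with 3 at it, of which 495 were called. Cells without any anchor UMI were more frequent (63.4% to 68.3%) than a Poisson distribution of the same mean would give (35.2% to 43.4%). Among iNKT1-like cells, interferon-high cells had medians of 3282, 4440, 6129 and 5720 UMIs in the 4 libraries and the other cells 3571, 4716, 6560 and 5790. Plasmacytoid dendritic cell markers summed to 0.226 to 0.429 UMIs per 10000 in the high iNKT1-like cells and 0.349 to 0.415 in the others, and B cell markers to 1.37 to 1.88 and 1.38 to 1.73. In iNKT2-like cells the plasmacytoid list was at 0.310, 0.561, 0.235 and 0.430 in high cells and at 0.290, 0.266, 0.316 and 0.229 in the others. Over all cells the B cell list was at 1.96, 2.35, 1.93 and 1.06 in high cells and at 1.16, 1.265, 1.54 and 1.204 in the others. It was thus above in 3 of the 4 libraries over all cells, and its part in the high cells was not tested.

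In the interferon-high iNKT1-like cells all 30 genes that the cut did not use were higher than in the other iNKT1-like cells of the same libraries (30 of 30, 0 lower). Over all 9741 genes tested, 5.41% were called higher and 3.68% lower. Because anchors and members were counted in the same cells, this describes how the genes go together and is no independent test. Log2 differences ran from 0.91 for Sp100 to 5.19 for Cxcl10, with a median of 2.05. Mx1 was at 79.0, 83.4, 97.1 and 85.2 CPM in high cells and at 2.41, 3.14, 4.00 and 3.21 CPM in other cells (4.75, SE 0.135). Ifit3b was at 399, 484, 510 and 422 CPM against 16.8, 15.3, 19.5 and 15.2 CPM (4.78, SE 0.0618). Neither gene came close to overlapping. Sp100 was at 575, 558, 546 and 563 CPM against 327, 319, 295 and 281 CPM (0.91, SE 0.0411) and was above in every library too, by the least of the 30. The adjusted p from edgeR was 1.77e-34 for Mx1 and 1.85e-25 for Sp100.

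The share of a gene's UMIs that lay in these cells varied widely among the 38. Interferon-high cells held 8.21% ± 0.729 of all UMIs (SD, n = 4). Of Rsad2 UMIs they held 74.3%, 79.1%, 84.8% and 77.5% in the 4 libraries, of Ifit3 73.6%, 77.4%, 78.2% and 73.8%, and of the deubiquitinating enzyme gene Usp18 66.2%, 68.0%, 69.4% and 63.0%. These 3 are anchors, so part of their share is set by the cut. Mx1 (72.1%, 74.3%, 74.0% and 72.1%) and Ifit3b (67.1%, 74.7%, 75.3% and 70.7%) are not, and their shares were of like size, though reads of Ifit3b and the anchor Ifit3 may be split between them. At the other end stood Sp100 with 13.0%, 14.8%, 15.9% and 14.5%. Irf9, the DNA-binding partner of Stat2, had 14.1%, 17.9%, 18.5% and 15.4%, and the GTPase gene Ifi47 had 15.8%, 18.9%, 19.0% and 17.1%. Ifi27l2a had 13.8%, 19.1%, 21.5% and 18.9%, and Ifi35, coding for a leucine zipper protein, had 18.4%, 20.5%, 19.9% and 19.2%. No library had more than 21.5% of the UMIs of any of these 5 genes in its interferon-high cells.

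**Figure D4:**
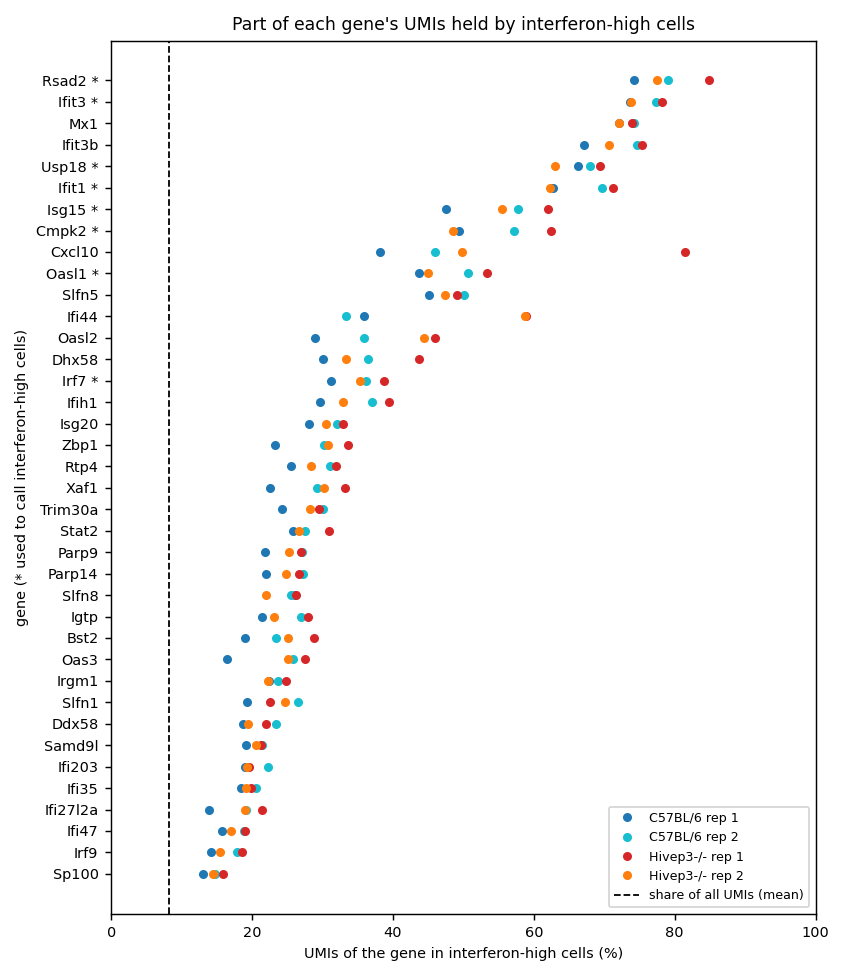
Percent of each gene's UMIs (x axis, cells with at least 2000 UMIs) that lie in interferon-high cells, for each gene (y axis, asterisks mark the 8 anchors) and library (colour). The dashed line is the share of all UMIs in these cells (8.21%), and Rsad2 lies highest (78.9% ± 4.41) and Sp100 lowest (14.5% ± 1.16).

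Among iNKT1-like cells, those with a UMI of 1 of these genes held UMIs of others more often than those without it. After thinning, Isg15 had a UMI in 54.2% to 63.9% of iNKT1-like cells with an Ifit3 UMI and in 10.5% to 12.7% of iNKT1-like cells without (range over the 4 libraries). Ifit1 had one in 44.0% to 49.7% and 4.25% to 6.11%. The neighbours Rsad2 and Cmpk2, 12751 bases apart on chromosome 12, gave 30.4% to 37.5% and 1.77% to 2.42%. For Sp100 the shares were closer, 58.6% to 65.8% with an Ifit3 UMI and 43.0% to 49.2% without. Free RNA in droplets would add UMIs to every cell alike, and its part in the lower shares was not tested.

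Genes outside the 38 were ranked if they had at least 20 CPM in the group where they were higher. The 10 that were highest in high over other iNKT1-like cells all belonged to the wider pathway list: Iigp1 (4.51), Ifi204 (4.43), Phf11c (2.997), Gbp6 (2.53), Ifi214 (2.52), Tor3a (2.50), Parp12 (2.46), Ddx60 (2.37), Eif2ak2 (2.36), the RNA-activated kinase, and Trim30d (2.34). All 10 met the floor only through the high cells, with means of 1.67 to 17.1 CPM in the other cells. The ranking thus describes the cells that the cut selected and is no independent test. Of the 118 genes of the wider pathway list tested, 93 were higher and 1, the phosphatase gene Ptpn6, was lower. Irf1 was higher by 0.56 (SE 0.0508). Of the type I receptor genes and their kinases none of the 4 passed, with 0.26 for Ifnar1 (0.0604), 0.16 for Ifnar2 (0.218), 0.12 for Jak1 (0.0869) and 0.09 for Tyk2 (0.812), the values in brackets being adjusted p from edgeR. The type II interferon receptor gene Ifngr1 (0.19, adjusted p 0.000335) and the kinase gene Jak2 (0.48, adjusted p 0.0238) did pass. With the same floor, here met in the other cells, the 5 genes that fell most were Tfap4 (-1.23), Fabp5 (-1.08), the spermidine synthase gene Srm (-0.96), Rcl1 (-0.94) and Ifrd2 (-0.89). None of them was in the pathway list.

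Outside the interferon-high cells the genes kept a basal level with the same order of class means. Cycling-like cells again lay above iNKT17-like cells in both C57BL/6 libraries and below them in both Hivep3-/- libraries. Without the high cells (kept cells under 2000 UMIs, which could not be assigned, counted with the rest) the sum was 7.70 ± 0.901 per 10000 in stage 0-like, 22.7 ± 3.33 in cycling-like, 20.9 ± 2.17 in iNKT17-like, 29.6 ± 1.54 in iNKT1-like and 33.9 ± 1.83 in iNKT2-like cells (SD, n = 4). High cells had thus held 31.4% ± 1.91 of the genes' UMIs in iNKT1-like cells and 15.2% ± 1.99 in cycling-like cells, and most of the sum lay outside them in every class. For the 30 genes that the cut did not use, the sum without high cells kept that order of class means. It was 7.17 ± 0.828 in stage 0-like, 20.8 ± 3.03 in cycling-like and 19.2 ± 2.13 in iNKT17-like cells. In iNKT1-like cells it was 27.2 ± 1.39 and in iNKT2-like cells 30.95 ± 1.76 (per 10000, SD, n = 4). With high cells taken out, 35 of 37 genes tested were called higher in iNKT1-like than in stage 0-like cells (32.7% of all genes), all of them called with high cells included. In cycling-like over stage 0-like cells 34 of 37 were called higher (28.3% of all genes), of which 33 were called with high cells included. Isg15 was then at 68.2, 58.0, 60.5 and 56.0 CPM in iNKT1-like and 31.4, 7.13, 16.8 and 17.8 CPM in stage 0-like cells. Sp100 was at 329, 320, 296 and 281 CPM against 185, 170, 222 and 187 CPM. Every iNKT1-like library lay above every stage 0-like library for both genes. Rsad2 had a basal 2.42, 1.55, 2.34 and 2.78 CPM in iNKT1-like and 2.01, 0, 0.420 and 1.30 CPM in stage 0-like cells, which overlap between the classes. Isg15 and Rsad2 are anchors, so part of their level without high cells is set by the cut. In iNKT17-like cells the basal sum was 19.0 ± 0.212 in C57BL/6 and 22.7 ± 0.861 in Hivep3-/- (SD, n = 2), so the Hivep3-/- libraries lay above. They also did in stage 0-like cells (8.24 and 8.33 against 7.84 and 6.38) and lay below in cycling-like cells (22.4 and 18.6 against 23.0 and 26.8).

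Between genotypes, no gene of the 38 passed the test outside cycling-like cells. Over all cells the sum was 33.6 and 37.96 per 10000 in C57BL/6 and 37.5 and 31.7 in Hivep3-/-, ranges that overlap, with a difference of -1.17 (Hivep3-/- minus C57BL/6). Over all cells 0 of 38 genes tested were called (0.765% of all genes were). The same count of 0 was found in iNKT1-like (38 tested; 0.637% of all genes called), iNKT2-like (38 tested; 0.408%), iNKT17-like (33 tested; 0.0654%) and stage 0-like cells (24 tested; 0.33%), by edgeR. At an unadjusted p under 0.05 there were 7, 6, 8, 2 and 2 genes, and DESeq2 called 2 (Cxcl10 and Oasl2), 1 (Cxcl10), 0, 0 and 0, in the same order. The unadjusted and DESeq2 counts stand without the share of all genes and are not read as a result about the 38 genes. The median log2 difference of the 38 genes was 0.05 over all cells, against 0.03 over all genes. Cxcl10, a chemokine for Cxcr3-bearing cells, was the member farthest from 0 over all cells. It was at 7.53 and 4.94 CPM in C57BL/6 and at 16.5 and 14.5 CPM in Hivep3-/- (1.21, SE 0.247, edgeR adjusted p 0.103), without overlap. In Hivep3-/- replicate 1, however, 222 of its 563 UMIs came from 1 cell and 77.6% from 10 cells. With interferon-high cells removed its difference was 0.38 (adjusted p 0.809).

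In cycling-like cells 4 of 37 genes tested were called, where 4.57% of all genes were. Ifi203 (chr1:173920407-173942672, minus strand) was higher in Hivep3-/-, at 120.0 and 102 CPM against 38.1 and 43.1 CPM (1.29, SE 0.155, edgeR adjusted p 0.00482, n = 2 per genotype). Oasl2, an oligoadenylate synthetase-like gene (chr5:114896936-114912234, plus strand), was lower, at 8.08 and 9.84 CPM against 27.4 and 34.0 CPM (-1.90, SE 0.236, adjusted p 0.00535). The libraries of the genotypes lay far apart for both genes. Isg20 was lower, at 37.9 and 33.0 CPM against 56.7 and 50.3 CPM (-0.76, SE 0.162, adjusted p 0.0404). The nucleic acid sensor Zbp1 was lower as well, at 62.8 and 51.5 CPM against 77.8 and 95.8 CPM (-0.77, SE 0.171, adjusted p 0.0485). Neither overlapped, but the gaps were smaller, and without C57BL/6 replicate 2 only Ifi203 and Oasl2 were called. Without C57BL/6 replicate 1 the count was 4, with neither Isg20 nor Zbp1 among them. Without Hivep3-/- replicate 1 the count was 9. Without correction between libraries in the clustering, 0 of the 38 genes were called in cycling-like cells, with Oasl2 at -1.998 (adjusted p 0.133) and Ifi203 at 0.85 (adjusted p 0.502), but the class then held fewer and other cells, as most C57BL/6 cycling-like cells fell in a cluster not counted with it. Of the wider pathway list, 3 genes (Ifngr1, Socs3 and Ifitm2) were higher and 6 (Gbp2, Psme2, Tgtp1, Ifi27, Ly6e and Ly6a) lower among 114 tested.

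The makeup of the cycling-like class moved with genotype beside these differences. Its iNKT1 markers summed to 9.22 and 9.51 UMIs per 10000 in C57BL/6 and to 40.9 and 24.7 in Hivep3-/-, and its iNKT2 markers to 18.8 and 17.3 and to 10.2 and 8.95. Clustered without correction, 79.7% and 76.7% of its C57BL/6 cells but 12.9% and 13.6% of its Hivep3-/- cells fell in a cluster led by Ccnb2, Il13 and Hist1h2ag, which counted as iNKT2-like by its markers although cell division genes are among its leading genes. In turn 2.33% and 1.83% of the C57BL/6 cells and 53.3% and 46.1% of the Hivep3-/- cells fell in a cluster without a class, led by Tnni1, Htra3 and Klrb1a. Of the genes called between genotypes in cycling-like cells, Ifi203 was higher and Oasl2 and Zbp1 were lower in iNKT1-like than in iNKT2-like cells as well. Isg20 went the other way, being higher in iNKT1-like cells (log2 difference 0.74, SE 0.160). The part of the makeup of the class in the genotype difference was not tested.

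**Figure D5:**
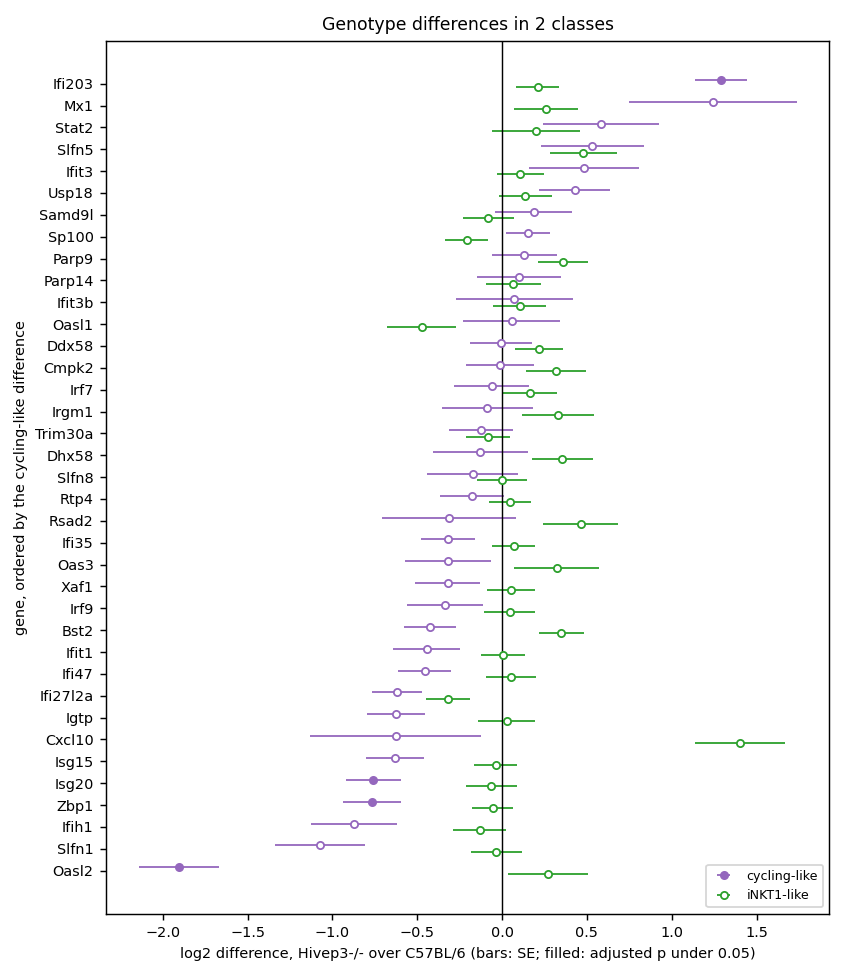
Log2 difference of each gene between Hivep3-/- and C57BL/6 (x axis, bars are SE from the fit over 4 libraries) in cycling-like and iNKT1-like cells (colour), for the 37 genes tested in cycling-like cells (y axis, ordered by that difference). Filled points passed the test: Ifi203 (1.29), Zbp1 (-0.77), Isg20 (-0.76) and Oasl2 (-1.90) in cycling-like cells and no gene in iNKT1-like cells.

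Whether the genotype difference itself differed between cycling-like and iNKT1-like cells was tested with an interaction term over both classes, a test added after the first results were seen. It called 11 of the 38 genes, Ifi203 with a higher and 10 genes with a lower difference in cycling-like cells, where 3.93% of all 11290 genes were called higher and 3.92% lower. The median of the 38 genes was -0.31, against 0.02 over all genes tested. Oasl2 had the largest term (-2.19, SE 0.291, edgeR adjusted p 0.000575). Its iNKT1-like levels were 15.5 and 10.3 CPM in C57BL/6 and 15.2 and 17.6 CPM in Hivep3-/-, which overlap. Bst2, coding for the virus-tethering protein tetherin, showed -0.79 (SE 0.113, adjusted p 0.00109). It was at 172 and 218 CPM in C57BL/6 and 171 and 153 CPM in Hivep3-/- cycling-like cells, which all but touch, and at 178 and 208 CPM and 269 and 248 CPM in iNKT1-like cells, which do not. Ifi203 (1.07, SE 0.126, adjusted p 0.000235) was at 193 and 183 CPM against 246 and 212 CPM in iNKT1-like cells, so it stood higher in Hivep3-/- in both classes. Without correction between libraries in the clustering the interaction called 0 of the 38 genes, over that other set of cycling-like cells.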

How the data were processed

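Single thymic iNKT cells of 4 mice, 2 of each genotype, were analysed from the UMI counts per gene and barcode that the authors deposited. The submitters' processing notes name Cell Ranger 3.1.0, Seurat 3.1.4 and mm10. Gene IDs matched GENCODE vM21 for 30934 of 31053 genes (99.6%). Cells with 500 to 4100 genes, at least 1000 UMIs and at most 6% mitochondrial UMIs were kept. Normalised counts were clustered in R 4.3.3 with Seurat 5.3.0, irlba 2.3.5.1 and RANN 2.6.2, on 2000 variable genes and 30 components corrected between libraries by mutual nearest neighbours (20), at resolution 0.8. From the variable genes 479 were left out, among them the 38 genes, the wider pathway list, sex-linked and T cell receptor genes. Scrublet was run through scanpy 1.11.5 in Python 3.11.15, and exact intervals came from SciPy 1.17.1.

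UMIs were summed per library and class, filtered with filterByExpr, scaled by TMM and tested with edgeR 4.0.16's quasi-likelihood test, two-sided, the p values of all genes tested being adjusted by Benjamini-Hochberg. Genotype was fitted alone within a class, and library was a block where classes were compared. CPM values are unscaled sums over all UMIs of the class. The steps were tested on simulated data. Alternatives were DESeq2 1.42.0, no filter on low counts, leaving out each library, a stricter cell filter (1000 genes, 2000 UMIs, 5% mitochondrial UMIs), removal of top-scoring doublets, other resolutions (0.4 and 1.2), no correction between libraries and a replicate block.

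Genes described singly were the listed genes called between genotypes, the 5 with the largest and the 5 with the smallest share of UMIs in interferon-high cells among those with at least 200 UMIs, up to 8 called in the most class comparisons, and, outside the list, Ifnar1, Ifnar2, Jak1, Tyk2 and Irf1. Also described from outside the list were the 10 highest and 5 lowest in interferon-high cells, with at least 20 CPM in the group where they were higher. Results of some other genes are not reported here. Other genes were named after their values were seen. The 38 genes, the other lists and the tests were chosen with earlier results of these data known.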

Additional observations from a re-analysis of the deposited data

Results flagged for a closer look

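The genotype difference in cycling-like cells minus that in iNKT1-like cells, as a log2 interaction term over both classes (edgeR's quasi-likelihood test, 4 libraries), passed an adjusted p of 0.05 for 11 of the 38 genes. It was positive for Ifi203 (1.07, adjusted p 0.000235). It was negative for Oasl2 (-2.19, 0.000575), Bst2 (-0.79, 0.00109), Slfn1 (-1.03, 0.00469), Igtp (-0.65, 0.00556), Zbp1 (-0.72, 0.00596), Isg20 (-0.71, 0.00666), Cxcl10 (-1.95, 0.0102), Isg15 (-0.60, 0.0121), Ifi47 (-0.52, 0.0141) and Oas3 (-0.60, 0.0493). Counting every gene tested, 887 of 11290 passed. In Hivep3-/- replicate 1, 10 cells held 77.6% of the Cxcl10 UMIs over all cells. Clustering without correction between libraries left 0 of the 11, over a cycling-like class of fewer and other cells, and the iNKT1 and iNKT2 marker lists of the cycling-like class moved with genotype as well. The part of that makeup was not tested.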

How the results depend on the processing

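None of the named genes followed through the alternatives reversed its direction. The direction of the other called genes was not followed gene by gene. Counts of calls under the alternatives stand here without the share of all genes called under the same setting. Of the genotype comparisons, all cells (0 of 38 genes called) had 2 calls with DESeq2 and 4 with no filter on low counts. Stage 0-like cells (0) had 2 with no filter and 0 to 3 when 1 library was left out, with 2 without Hivep3-/- replicate 1 and 3 without Hivep3-/- replicate 2. Cycling-like cells (4) had 7 with DESeq2, 10 with no filter, 0 without correction between libraries and 2 to 9 with 1 library left out. iNKT2-like cells (0) had 4 with no filter, 2 without correction and 0 to 2 with 1 library left out, the 2 coming without C57BL/6 replicate 1. iNKT17-like cells (0) had 1 with no filter and 0 to 1 with 1 library left out, again without C57BL/6 replicate 1. iNKT1-like cells (0) had 1 with DESeq2, no filter, the stricter cell filter or resolution 0.4, and 0 to 1 with 1 library left out. The interaction (11) called 0 without correction and 8 to 15 with 1 library left out. Without correction most C57BL/6 cycling-like cells fell outside the class, so other cells were compared. The cause of the other changes was not tested.

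Mouse numbers are shared by the genotypes but are not stated to pair them, and the replicate 1 minus replicate 2 differences of the genotypes correlated at r = 0.013 over 12291 genes, so pairing was not assumed. With the replicate number as a block, 9 genes were called in cycling-like cells, 3 in iNKT2-like cells, and 1 each over all cells and in the stage 0-like, iNKT17-like and iNKT1-like classes. No such block was fitted to class comparisons, which have library as a block, or to the interaction.

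The share of interferon-high cells (Hivep3-/- minus C57BL/6, -0.397 percentage points) was 0.597 in iNKT1-like cells alone and -1.15 to 0.354 with 1 library left out. The summed level (-1.17 per 10000) was 1.05 in iNKT1-like cells alone, -1.88 without interferon-high cells and -4.10 to 1.77 with 1 library left out. In cycling-like cells Zbp1 and Isg20 lost their calls under several alternatives, Isg20 at an adjusted p of 0.252 without C57BL/6 replicate 1, while Ifi203 and Oasl2 lost theirs only without correction. With 2 mice per genotype, stage 0-like and iNKT17-like sums were too shallow to test 14 and 5 of the 38 genes between genotypes.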
